A study of Mus musculus with 2 samples.

Results

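PU.1 and its relatives belong to the ETS family of transcription factors, and 10 ETS genes (Spi1, Fli1, Ets1, Ets2, Erg, Etv6, Elf1, Gabpa, Spib and Elk3) are described here in erythroid cells in which Lmo2 was knocked down. They were chosen by symbol, with older aliases counted, and all 10 are on the array among 22010 named genes. RNA came from G1E-ER-GATA-1 cells, a mouse line derived from GATA-1-null embryonic stem cells that carries a GATA-1 fusion switched on by estradiol. Cells received LMO2 siRNA or control siRNA and were then kept in estradiol for 24 h, so both groups lack endogenous GATA-1 and carry the activated fusion. The line is a single cultured line, and an siRNA lowers its target without deleting it. RNA of both groups was hybridised together on 2 Agilent mouse arrays, replicates 1 and 2, which sit on 1 slide.

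ETS factors share a winged helix-turn-helix domain that binds DNA around a GGAA core, and members differ in the sequences next to that core and in their partners. PU.1, encoded by Spi1, drives myeloid and B-lymphoid genes, and PU.1 and GATA-1 bind each other and inhibit each other's activity, so that erythroid maturation normally goes with low PU.1. FLI1 and ERG act with GATA and SCL complexes, which contain LMO2, in stem cells and megakaryocytes.

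The LMO2 siRNA RNA was in the Cy3 (green) channel and the control siRNA RNA in the Cy5 (red) channel on both arrays, so an effect of dye and an effect of the siRNA cannot be told apart. Each array held 43379 spots for genes or transcripts, and 55.8% to 68.2% of them were well above background per channel. Ratios are LMO2 siRNA over control siRNA on the log2 scale, given as the mean ± SD of both arrays (n = 2). The labels do not say that the arrays came from separate cultures, so p-values measure only the spread between these arrays, which may be technical, and the number of arrays limits the precision. A gene was "called" when its limma adjusted p was below 0.05, which held for 51.9% of 14316 measured genes. "Rose" and "fell" are kept for genes whose probe is not saturated and that were called, with 1 sign, in each of 3 sets of values: background-corrected and loess-normalised signals (the main values), the same signals divided by the scanner's factor for position on the array before loess, and the scanner's own processed signals. That rule was met upwards by 4.25% and downwards by 2.94% of measured genes, 7.19% in all. In bulk RNA, fewer cells that express a gene and less of its RNA per cell cannot be told apart.

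Lmo2 had spot signals of 1254 and 1138 intensity units with LMO2 siRNA, against 8336 and 8571 with control siRNA (replicates 1 and 2). Both LMO2 siRNA signals were far below both control signals. Raw signals of the channels are not on 1 scale, and loess shifted the Lmo2 ratios up by 0.90 and 0.86. A raw gap between the channels is therefore not by itself an siRNA difference, here or for the genes below. The log2 ratio was -1.92 ± 0.14, a 3.77-fold lower level (limma adjusted p = 2.9e-21). Of 11 erythroid markers on the array, all 11 were well above background. The labels also describe the cells as embryonic stem cells, but Nanog, Sox2 and Zfp42 were not well above background, while the other 4 of 7 pluripotent markers were. Spots of those 4 were dim, with LMO2 siRNA signals from 51.3 to 126, against median backgrounds of 41 and 39.5 in that channel. The processed signals of all 7 pluripotent markers summed to 474 and 439 with LMO2 siRNA, against 431 and 343 with control siRNA.

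The array carried 21 probes for the 10 ETS genes, each a 60-base oligonucleotide. Of these, 16 were well above background in at least 1 channel on both arrays and count as measured, which left 9 of the 10 genes with a value. None of the probes was saturated. The positions of the probes within the transcripts were not looked up here. Chromosomes are those of the RefSeq gene table. Sequences are shown for the only Spi1 probe, because the clearest difference among the members rests on it, for 1 of the 3 Gabpa probes, all of which were called lower once spot position was corrected for, and for a pair of Ets1 probes that overlap over 50 bases. Each is written 5′ to 3′ as on the array, and capitals mark the 4 bases at which the Ets1 probes differ.
Spi1 (chromosome 2), A_52_P498086: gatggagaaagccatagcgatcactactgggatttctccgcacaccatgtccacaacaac
Gabpa (chromosome 16), A_51_P364984: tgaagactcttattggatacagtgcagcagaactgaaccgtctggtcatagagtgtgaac
Ets1 (chromosome 9), A_51_P329043: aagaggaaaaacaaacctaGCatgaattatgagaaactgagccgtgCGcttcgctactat
Ets1 (chromosome 9), A_52_P232830: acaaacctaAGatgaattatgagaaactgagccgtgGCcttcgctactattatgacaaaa

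Counted from base 1 at the 5′ end of A_51_P329043, with its base first, the Ets1 differences are G20A, C21G, C47G and G48C. The probe A_52_P232830 was well above background in both channels on both arrays. The probe A_51_P329043 was well above background only on replicate 1, so it has no measured ratio. Its spot signals were 61.9 and 42.0 intensity units with LMO2 siRNA and 87.8 and 55.4 with control siRNA.

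Among the 9 measured ETS genes, Spi1 was higher with LMO2 siRNA and was the only one that rose (background 4.25%), while none fell (background 2.94%, and 7.19% in either direction). With the main values 2 were called higher (Spi1 and Fli1; 24.5% of all measured genes were called higher), 4 lower (Gabpa, Ets2, Etv6 and Elf1; background 27.4%), and 3 neither (Ets1, Erg and Elk3). The median log2 ratio of the 9 genes was -0.06, against -0.02 over all measured genes. With position correction 1 was called higher (Spi1; background 20.3%) and 1 lower (Gabpa; background 17.9%). In processed signals limma called 1 higher (Spi1; background 5.27%) and 0 lower (background 4%), with 2 genes lower at an unadjusted p under 0.05. The number of calls does not set the ETS genes apart from the rest of the array. The differences were small, between -0.36 for Gabpa and 0.43 for Spi1.

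**Figure D1:**
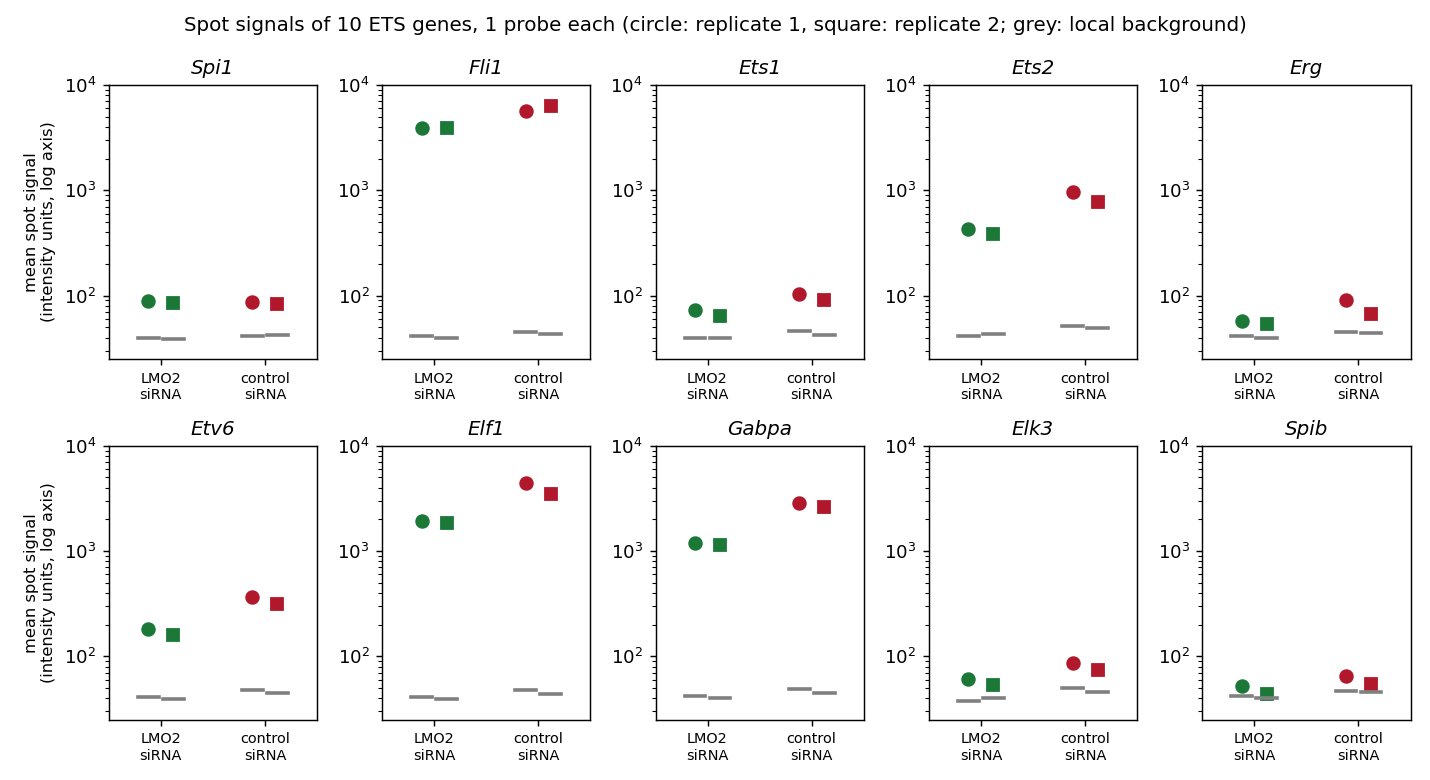
Mean spot signal (intensity units, log axis) of 1 probe for each of the 10 ETS genes in the LMO2 siRNA channel (green) and the control siRNA channel (red), with circles for replicate 1, squares for replicate 2 and grey bars for the local background. The Spi1 spots read 89.6 and 84.9 with LMO2 siRNA and 86.8 and 83.5 with control siRNA, and the Spib spots lie close to their background. Signals are drawn before normalisation, so a gap between the channels is not by itself an siRNA difference.

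Spi1 encodes PU.1. Its probe read 89.6 and 84.9 intensity units with LMO2 siRNA, against 86.8 and 83.5 with control siRNA. Before loess the channels were nearly equal, with log2 ratios of 0.05 and 0.12 after background correction. Loess, which removes the mean ratio of spots of like brightness, shifted the ratios up by 0.41 and 0.28. The normalised log2 ratios were 0.47 on replicate 1 and 0.39 on replicate 2, and both arrays lay on the same side of 0. The mean was 0.43 ± 0.05, 1.35-fold higher (limma adjusted p = 1.9e-07), which ranked 974 from the highest of 14316 measured genes. With position correction the ratio was 0.34 ± 0.07 (1.27-fold, adjusted p = 8.0e-04).

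The size of the Spi1 difference varied between the sets of values. The scanner's processed signals were 112 and 109 with LMO2 siRNA, against 53.8 and 56.4 with control siRNA, and these channels did not overlap. That gave a log2 ratio of 0.94 ± 0.11, 1.92-fold higher (limma adjusted p = 0.032). In the fit over probes the same processed value missed the threshold (adjusted p = 0.052), so that Spi1 meets the rule for a rise in the fit over genes and would not in the fit over probes. The local background lay at 40.0 and 39.0 in the LMO2 siRNA channel and at 41.5 and 42.0 in the control channel, so less than 50 intensity units per spot remained above it. The scanner's own p-values for the spot were 2.1e-05 and 1.0e-04. Spi1 has 1 probe, so no second sequence on the array bears on the reading.

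Spib encodes Spi-B, the close relative of PU.1 in B cells and plasmacytoid dendritic cells. Its probe read 52.9 and 43.9 with LMO2 siRNA and 65.3 and 54.4 with control siRNA. Neither channel was well above background on either array, and no ratio is given. Spic, which encodes the remaining PU.1-like factor, was measured and was not called (0.05 ± 0.12, limma adjusted p = 0.49), and is named here after its value was seen.

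Fli1 and Erg encode closely related factors of megakaryocytes, endothelium and stem cells. The Fli1 probe used for the gene read 3908 and 3892 with LMO2 siRNA, against 5596 and 6296 with control siRNA. Its normalised log2 ratios were 0.41 and 0.20, with a mean of 0.31 ± 0.15 (limma adjusted p = 6.6e-05), but the sign turned to -0.37 when arrays were centred on their median in place of loess, where the median of all genes was -0.40. With position correction the ratio was 0.13 ± 0.13 (adjusted p = 0.0998) and in processed signals 0.08 ± 0.17 (adjusted p = 0.55), so Fli1 was called without meeting the rule for a rise. The other Fli1 probe gave 0.32 ± 0.17 with the main values, 0.28 with position correction and 0.21 in processed signals, and 1 of the 2 Fli1 probes was still called with position correction (adjusted p over all probes = 0.0090). On both probes replicate 1 gave the larger ratio, 0.41 against 0.20 and 0.44 against 0.19, a wide spread beside the mean.

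The Erg probe read 57.6 and 54.1 with LMO2 siRNA, against 90.0 and 67.2 with control siRNA. The normalised log2 ratios were -0.15 and 0.03, on opposite sides of 0, and the mean of -0.06 ± 0.12 was not called (limma adjusted p = 0.43). The other Erg probe was not well above background in either channel.

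Ets1 and Ets2 encode the factors after which the family is named, both targets of RAS and MAP kinase signalling. The measured Ets1 probe shown above read 72.7 and 64.3 with LMO2 siRNA, against 103 and 91.4 with control siRNA. Its normalised ratios of 0.06 and -0.05 had opposite signs, and the mean was 0.01 ± 0.08 (limma adjusted p = 0.94). Another Ets1 probe read -0.08 ± 0.02 with the main values, -0.07 with position correction and -0.48 in processed signals, and was not called with any of them. The Ets2 probe read 426 and 381 with LMO2 siRNA, against 954 and 780 with control siRNA. Its log2 ratios were -0.35 and -0.24, with a mean of -0.30 ± 0.07 (adjusted p = 6.2e-05), so Ets2 was called lower. With position correction the Ets2 ratio was -0.05 ± 0.11 (adjusted p = 0.56) and in processed signals -0.14 ± 0.09 (adjusted p = 0.23), so that call was lost.

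Etv6 encodes an ETS repressor needed by haematopoietic stem cells, and Elk3 a ternary complex factor that works with SRF. Etv6 read 184 and 161 with LMO2 siRNA, against 367 and 315 with control siRNA, on the probe used for the gene. The normalised ratios were close, -0.25 and -0.24, with a mean of -0.24 ± 0.01 (limma adjusted p = 5.1e-04). With position correction it was -0.12 ± 0.01 (adjusted p = 0.10) and in processed signals -0.25 ± 0.04 (adjusted p = 0.088). The other Etv6 probe gave 0.21 ± 0.01 and was called higher in the fit over probes (adjusted p = 0.0066), so the probes of Etv6 disagreed in sign. Elk3 read 60.8 and 53.1 with LMO2 siRNA, against 87.2 and 73.5 with control siRNA. Its ratios of 0.08 and -0.06 had opposite signs and it was not called (0.01 ± 0.10, adjusted p = 0.92).

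Elf1 and Gabpa encode widely expressed factors. ELF1 has known targets in lymphoid and haematopoietic cells, and GABPA is the DNA-binding subunit of GABP, which activates genes of mitochondrial function and cell cycle entry. Elf1 read 1939 and 1850 with LMO2 siRNA, against 4438 and 3454 with control siRNA. Its ratios were -0.29 and -0.04, and the mean of -0.16 ± 0.18 was smaller than the spread between the arrays although limma called it (adjusted p = 0.025). In the fit over probes the same probe missed the threshold (adjusted p = 0.051). With position correction it was -0.01 ± 0.16 (adjusted p = 0.92).

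Gabpa had the lowest ratio of the 9 genes. Its spot signals were 1184 and 1152 with LMO2 siRNA, against 2836 and 2620 with control siRNA, and loess shifted the ratios up by 0.86 and 0.83. The normalised ratios of -0.39 and -0.33 gave a mean of -0.36 ± 0.04, 1.28-fold lower (limma adjusted p = 3.2e-06). With position correction the ratio was -0.26 ± 0.05 (adjusted p = 0.0032). In processed signals the ratio was about as large, -0.35 ± 0.01, with an adjusted p of 0.059, so Gabpa was called with 2 of the 3 sets of values and does not count as having fallen.

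**Figure D2:**
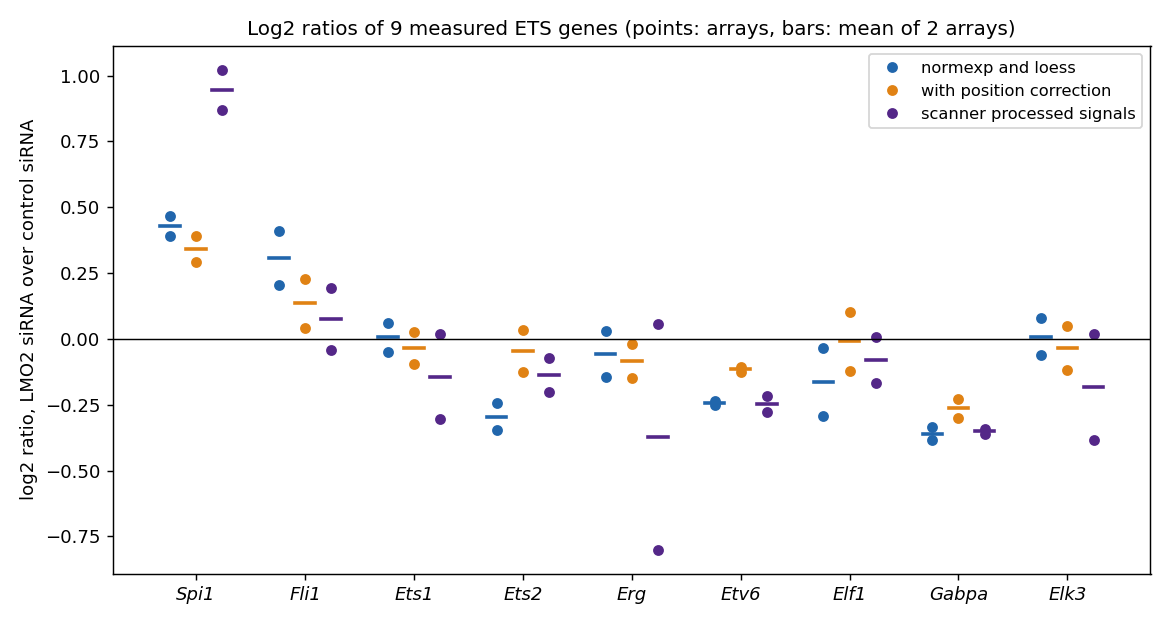
Log2 ratios of LMO2 siRNA over control siRNA for the 9 measured ETS genes on each array (points) with the mean of 2 arrays (bars), from the main values (blue), with position correction (orange) and from processed signals (purple). Spi1 lies above 0 on both arrays in all 3 sets, Gabpa lies below 0 on both arrays in all 3 sets, and for Fli1 the mean goes from 0.31 with the main values to 0.08 in processed signals (it was -0.37 with median centring in place of loess, where the median of all genes was -0.40, which is not drawn).

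The ratios drifted with the row of the array on which a spot was printed, and this bears on most of the members. Over all measured probes, the median log2 ratio was -0.16 in rows 1 to 133, -0.05 in rows 134 to 266, 0.03 in rows 267 to 399 and 0.12 in rows 400 to 532. With position correction these medians lay between -0.02 and 0.01. The probes that gave Ets2 (row 47), Etv6 (row 99) and Elf1 (row 119) their lower calls lie in the block of rows with the lowest median. The Fli1 probe of the gene (row 438) lies in the block with the highest, and each of these 4 calls was lost with position correction. The Spi1 probe (row 327) and the Gabpa probe of the gene (row 200) lie in the middle blocks, and both calls remained.

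Probes of 1 gene lay in different rows. Position correction narrowed the range between probes in Gabpa, Elf1, Etv6 and Ets1 and widened it in Fli1, whose probes in rows 370 and 438 spanned 0.011 with the main values and 0.14 with position correction. The Gabpa probes read -0.46 in row 88, -0.36 in row 200 and 0.03 in row 478 with the main values. With position correction the same probes read -0.28, -0.26 and -0.22, and all 3 were called lower in the fit over probes (limma adjusted p = 0.0037, 0.0047 and 0.011). The 3 Gabpa probes thus spanned 0.49 with the main values and 0.06 with position correction. In processed signals they read -0.41, -0.35 and -0.31, each with an adjusted p between 0.084 and 0.093.

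The Elf1 probes read -0.23 in row 93, -0.16 in row 119 and 0.22 in row 505 with the main values. With position correction they read -0.09, -0.01 and 0.02, and none was called. The Etv6 probes spanned 0.45 with the main values and 0.17 with position correction, where they read -0.12 in row 99 and 0.06 in row 475. Over the 5 ETS genes with more than 1 measured probe, probes had both signs in 4 genes with the main values, in 2 with position correction and in 1 in processed signals. The median range between probes of 1 gene was 0.44, 0.11 and 0.19 with these sets of values.

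**Figure D3:**
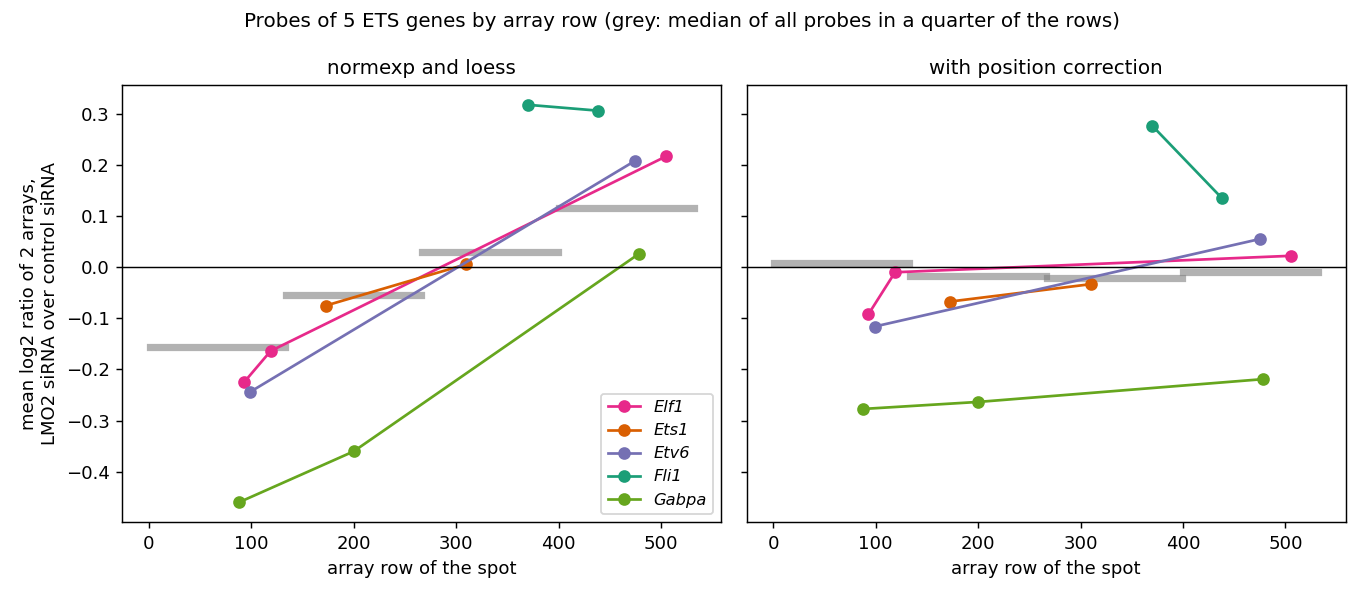
Mean log2 ratio of 2 arrays for each measured probe of Fli1, Ets1, Etv6, Elf1 and Gabpa against the array row of its spot, with the main values (left) and with position correction (right), where grey bars give the median of all measured probes in each of 4 blocks of rows. Gabpa probes go from -0.46 to 0.03 across rows on the left and lie between -0.28 and -0.22 on the right.

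In the fit over all 24737 measured probes, 5 of the 16 measured ETS probes were called higher (background 21.6%) and 5 lower (background 24.4%). With position correction 2 were called higher (Spi1 and 1 Fli1 probe; background 17%) and the 3 Gabpa probes lower (background 15.7%). In processed signals none of the 16 was called by limma (0.606% of all probes were, in either direction), with 1 higher and 5 lower at an unadjusted p under 0.05, and the lowest adjusted p, 0.052, was that of Spi1.

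Of 16 further ETS family genes, 9 were measured. With the main values limma called 0 higher (1 at an unadjusted p under 0.05), 1 lower and 8 neither, against 24.5% and 27.4% of all measured genes, and none rose or fell. Their median log2 ratio was 0.01. With position correction 3 were called higher (background 20.3%) and 2 lower (background 17.9%), and in processed signals 0 higher (background 5.27%) and 1 lower (background 4%). Elf4, a relative of Elf1, was called lower at -0.34 ± 0.07 and at -0.18 with position correction, although its other probe read 0.01 with the main values. Fev read -0.13 ± 0.03 and was not called with the main values, but was called lower with position correction (-0.23, limma adjusted p = 0.0063) and in processed signals (-0.55, adjusted p = 0.043). Elf2 read 0.12 ± 0.09 and was not called with the main values, but was called higher with position correction (0.18, adjusted p = 0.032). It turned to -0.49 with median centring, where the median of all genes was -0.40. Erf, an ETS repressor, read -0.11 ± 0.12 and was not called, but with position correction its sign turned and it was called higher (0.16, adjusted p = 0.034). Etv3, named here after its values were seen, read 0.02 ± 0.15 and was called higher only with position correction among the 3 sets (0.28, adjusted p = 0.0031). Elk4 read 0.06 ± 0.03, was not called with any of the 3 sets, and turned to -0.54 with median centring.

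Genes that PU.1 is known to activate were higher in part. Of 31 such genes 21 were measured, of which 10 were called higher (background 24.5%), 1 lower (background 27.4%) and 10 neither, and 7 rose (background 4.25%) while none fell (background 2.94%). The median log2 ratio of the measured genes was 0.13 with the main values, 0.19 with position correction and 0.34 in processed signals, against -0.02, -0.01 and -0.09 over all genes. With dim probes kept, so that all 31 targets count, the median with the main values was -0.02, against -0.01 over all genes. The higher median thus holds for the measured targets and not for the list as a whole. The list was drawn up with earlier results of these data known, so it is no independent evidence of a direction.

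Those described here encode proteins of myeloid and lymphoid cells. Fcgr3, an Fc receptor for immunoglobulin G, read 1165 and 1455 with LMO2 siRNA, against 437 and 519 with control siRNA, and its log2 ratio was 2.21 ± 0.04. Pirb, an inhibitory receptor, read 1500 and 1781 with LMO2 siRNA, against 633 and 810 with control siRNA, with a log2 ratio of 1.98 ± 0.08. For both genes every LMO2 siRNA signal was above every control signal, and a further probe of each was also higher (1.68 for Fcgr3 and 2.67 for Pirb). Btk, the tyrosine kinase of B-cell receptor signalling, rose by 1.16 ± 0.03, and Fes, a myeloid tyrosine kinase, by 0.98 ± 0.06. Cd68, a lysosomal glycoprotein of macrophages (0.55 ± 0.05), and Cd53, a leukocyte tetraspanin (0.28 ± 0.04), also rose and are named here after their values were seen.

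Other PU.1 targets were not called, among them Csf1r, the macrophage growth factor receptor (-0.12 ± 0.06, limma adjusted p = 0.083), Itgam, an integrin subunit (-0.09 ± 0.02, adjusted p = 0.17), Mpo, the neutrophil peroxidase (-0.03 ± 0.05, adjusted p = 0.70), and Lyz2, a lysozyme (-0.04 ± 0.03, adjusted p = 0.54). Their spots were dim, with LMO2 siRNA signals from 50.4 (Lyz2) to 121 (Csf1r), against median backgrounds of 41 and 39.5 in that channel. In processed signals they read -0.22, -0.20, -0.34 and -0.45 in the same order, and were not called there either. At such low signal, the lack of a call does not show an unchanged level. Ncf4, a phagocyte NADPH oxidase subunit, was called lower at -0.37 ± 0.06. These 5 were named after their values were seen. A further 10 listed targets were not measured, Cybb, Csf3r and Elane among them. The brightest probe of Csf2rb, a shared cytokine receptor subunit, was saturated, and no fold is given for it, while its other 2 probes were not saturated and were called higher in the fit over probes at 0.27 ± 0.15 and 0.42 ± 0.08 (limma adjusted p = 0.0019 and 2.0e-05).

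Markers of other cell types were read beside these targets, and their part in the result was not tested. Of 14 granulocyte and macrophage markers 7 were well above background, and the processed signals of all 14 summed to 567 and 538 with LMO2 siRNA, against 628 and 615 with control siRNA. S100a8, S100a9, Elane, Csf3r, Ngp, Camp and Adgre1 were not well above background. Of 8 mast cell and basophil markers 6 were well above background, 3 were called higher (background 24.5%) and 2 rose (background 4.25%). The summed signals of all 8 were 1980 and 2118 with LMO2 siRNA, against 892 and 935 with control siRNA. Hdc was by far the brightest of them, with spot signals of 633 and 636 with LMO2 siRNA, against 440 and 473 with control siRNA. No other measured marker of that list read above 87.9 with LMO2 siRNA, and Tpsb2, Fcer1a and Cma1 were not called. These genes were named after their values were seen. Of 7 B-cell markers 4 were well above background, with sums of 535 and 428 with LMO2 siRNA, against 646 and 537 with control siRNA, and Pax5, Ebf1 and Cd79b were not. Of 7 T-cell markers 4 were well above background, with sums of 446 and 333 with LMO2 siRNA, against 627 and 414 with control siRNA. Of 7 endothelial markers 2 were well above background, with sums of 219 and 118 with LMO2 siRNA, against 264 and 128 with control siRNA. By calls, 1 of 7 measured granulocyte and macrophage markers was called higher (background 24.5%) and rose (background 4.25%). Of 4 measured B-cell and 4 measured T-cell markers, 1 each was called lower (background 27.4%) and fell (background 2.94%). Neither measured endothelial marker was called. Of 11 erythroid markers 3 were called higher, 2 of them on saturated probes, and 5 lower, against the same backgrounds, and none rose or fell.

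**Figure D4:**
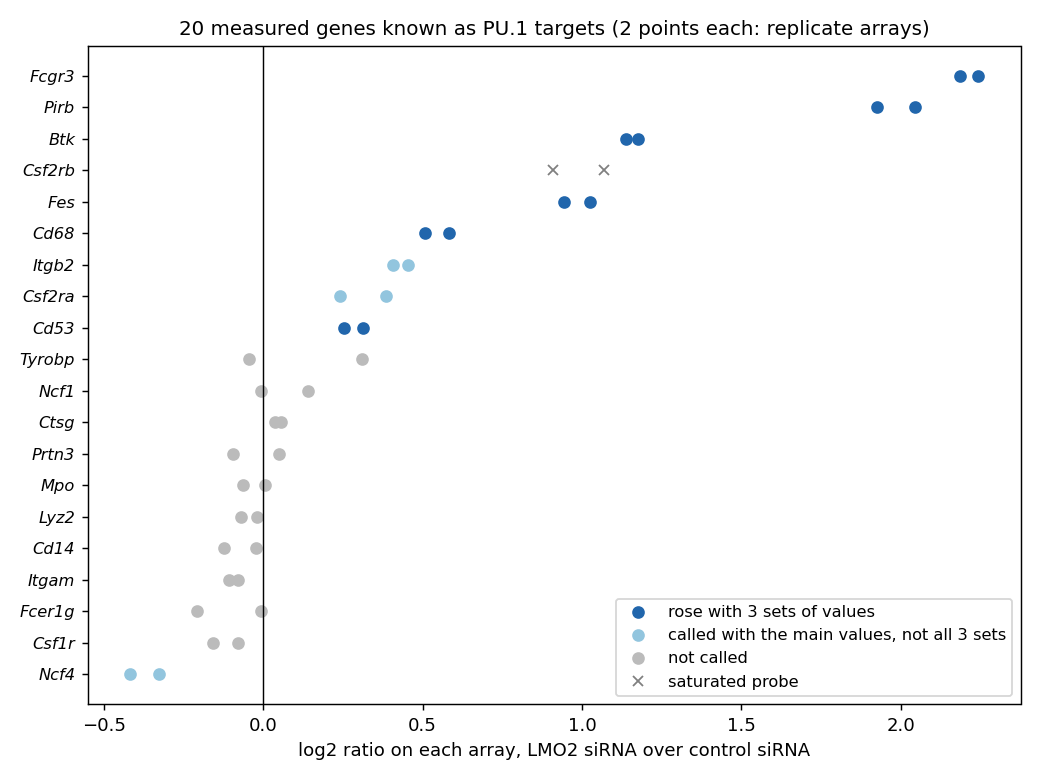
Log2 ratio of LMO2 siRNA over control siRNA on each of 2 arrays for 20 measured genes known as PU.1 targets, coloured by whether a gene rose with 3 sets of values, was called with the main values without meeting that rule, or was not called, with crosses for a saturated probe. The 6 drawn genes that rose run from Cd53 at 0.28 to Fcgr3 at 2.21, and Ncf4 is the lowest at -0.37.

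Among 24 partners and cofactors of ETS factors, 21 were measured. Limma called 7 of them higher (background 24.5%), 5 lower (background 27.4%) and 9 neither, and by the stricter rule 3 rose (background 4.25%) and none fell (background 2.94%). The 3 were Lyl1, a basic helix-loop-helix factor of the SCL type (1.60 ± 0.14), Myb, a factor of progenitor growth (0.81 ± 0.10), and Gata2, the GATA factor of progenitors (0.43 ± 0.06, but -0.20 with median centring). The other Myb probes gave smaller ratios of 0.42, 0.52 and 0.15, and the other Gata2 probe gave 0.27. With median centring the median of all genes was -0.40, so values given for that setting are to be read against it. Cbfb, the partner subunit of RUNX factors (0.62 ± 0.03), and Tal1, which encodes SCL (0.38 ± 0.04, but -0.36 with median centring), were called higher without meeting the rule, with adjusted p of 0.054 and 0.29 in processed signals. The Cbfb call was lost with median centring (0.03, adjusted p = 0.82), and the other Cbfb probe read 0.09 and was not called (adjusted p over all probes = 0.27). Gabpb1 encodes the subunit that pairs with GABPA, and it is named here after its value was seen. Its ratio was -0.38 ± 0.01 with the main values (limma adjusted p = 1.5e-06), -0.27 with position correction (adjusted p = 0.0025) and -0.38 in processed signals (adjusted p = 0.056). Like Gabpa, it was called lower with 2 of the 3 sets of values.

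Of 8 known GABP targets, all measured, 3 had saturated probes. The other 5 were Tfb1m, a mitochondrial ribosomal RNA methyltransferase (-0.22 ± 0.05), Skp2, a ubiquitin ligase subunit of cell cycle entry (-0.18 ± 0.06), Tfam, the mitochondrial transcription factor (-0.18 ± 0.13), Tfb2m (-0.09 ± 0.02) and Polrmt (-0.05 ± 0.07). The first 3 of these were called lower (background 27.4%) and none fell by the rule (background 2.94%). With position correction Skp2 read 0.05 and Tfam was called higher at 0.20 (limma adjusted p = 0.014), so their direction depended on that correction. Tfb1m read -0.20 there, and Tfb2m was called lower at -0.24 (adjusted p = 0.0053). The second Skp2 probe read 0.19 ± 0.28 and the second Tfb2m probe 0.11 ± 0.02 with the main values, opposite in sign to the probe used for the gene. Of the other Tfam probes, 1 read -0.30 ± 0.03 and was called lower in the fit over probes (limma adjusted p = 4.0e-04). The remaining Tfam probe read -0.005 ± 0.08 and was not called. With saturated genes counted, 2 of the 8 were called higher (background 24.5%) and 3 lower. With position correction 4 were called higher (background 20.3%) and 2 lower (background 17.9%), and the median went from -0.10 to 0.12. Those 4 were the 3 saturated genes and Tfam, so the turn of the median rests largely on saturated probes. The median of the 5 unsaturated genes was -0.18 with the main values. Atp5b, a saturated gene named after its values were seen, has unsaturated probes at 0.35 ± 0.27 and 0.13 ± 0.19. The first was called higher in the fit over probes (limma adjusted p = 0.0011).

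Genes of platelets and megakaryocytes that FLI1 and other ETS factors are known to activate were mixed. Of 13 such genes 11 were measured, 3 were called higher (background 24.5%), 1 lower (background 27.4%) and 7 neither, with 2 rises (background 4.25%) and 1 fall (background 2.94%). Gp1ba (1.18 ± 0.05) and Gp5 (0.62 ± 0.01), which encode parts of the von Willebrand factor receptor, rose, while Gp9 (-0.31 ± 0.05), which encodes another part of it, fell. Treml1, a platelet receptor, was called higher at 0.30 ± 0.02 (adjusted p = 0.11 in processed signals, and 0.75 with median centring, where it read 0.04 and the median of all genes was -0.40). Pf4, platelet factor 4, was not called (-0.13 ± 0.16). The summed processed signals of the 13 genes were 5733 and 6571 with LMO2 siRNA, against 4286 and 4570 with control siRNA. Gp1ba was by far the brightest of them, with spot signals of 1255 and 1309 with LMO2 siRNA, against 999 and 982 with control siRNA. The sums therefore do not describe the list as a whole, and the median log2 ratio of the 11 measured genes was 0.02.

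Promoter windows, 250 bases before to 50 after a RefSeq start site, were given for 7 of the 10 ETS genes (10 windows), and Spi1, Fli1 and Ets1 had none in the table. On both strands, the GABP-type motif CCGGAAG and the PU.1-type motif GAGGAA each occurred in the Gabpa window and in no other window of the 7 genes, while 8.86% and 28.3% of all 32851 windows in the table hold them. The motif AGATAA, bound by GATA factors, occurred in 1 of 3 Erg windows (11.2% of all windows), and TGATAA in none of the 10 (9.05% of all windows). A match is a description of the letters and not of binding.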

How the data were processed

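Total RNA of LMO2 siRNA cells (Cy3) and control siRNA cells (Cy5) was hybridised to 2 arrays, per the labels. Agilent Feature Extraction 9.1.3.1 quantified the spots, per the file headers. Each deposited scanner file gives intensity on a linear scale (mean signal, local background and processed signal), a position factor that is a ratio, a p-value for each spot and a log10 ratio of red over green, as does the series' own deposited table in log10. For the probe design, no genome build is named in the labels or file headers used here.

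From these, R 4.3.3 and limma 3.58.1 were used for normexp (offset 50), loess within arrays with control spots (1639) at weight 0, and averaging of repeated probes, and the resulting log2 ratios, computed from the deposited intensities, were turned to LMO2 siRNA over control. Of 41174 probes, 24737 were well above background in at least 1 channel on both arrays and were used. A gene is its brightest such probe, and the same probe was used with all 3 sets of values. For position correction, the signal left after normexp was divided by the position factor, and the offset of 50 and loess followed. Processed signals were centred on each array's median. The mean of each gene was tested against 0 by limma (lmFit, eBayes), two-sided. P-values of the 14316 genes were adjusted by the Benjamini-Hochberg method, and the threshold was 0.05. The main fit had 28.1 prior and 1 residual degrees of freedom, so that the pooled variance weighs most in it. Prior degrees of freedom were 8.76 after position correction and 2.25 in processed signals, in fits that chose the brightest probe anew. The 3 sets of values are therefore not equally strict. A call lost in processed signals does not by itself show a smaller ratio. A second fit covered all probes. The code was tested on simulated data.

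The members, gene lists, tests and call rule were chosen with earlier results of these data known. Named genes are the 10 members, Lmo2 and, in 5 other lists, up to 5 measured unsaturated genes with the largest absolute log2 ratio. Genes named otherwise are marked in the text, and 1 gene the rule picks among the PU.1 targets is counted but not reported here. Gene symbols come from a RefSeq table of assembly GRCm38.p6 by accession for 24844 probes, and otherwise from the array files. Promoter windows are RefSeq's, of the same assembly. The arrays share a slide, so slide could not be tested as a batch.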

Additional observations from a re-analysis of the deposited data

How the results depend on the processing

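Spi1 kept its direction and its call in all 14 alternatives with a test, from 0.31 (median centring in place of loess) to 1.01 (processed signals without centring, an alternative chosen after seeing the data), and read 0.39 and 0.47 on single arrays. Gabpa kept its direction in all of them and missed the threshold in 3 (adjusted p = 0.059 to 0.075), all built on the scanner's processed values. The call was lost in 8 alternatives for Elf1, 5 for Etv6, 4 for Ets2 and 4 for Fli1, whose sign also turned once. With the brightest probe chosen anew under each setting, 748 genes were called higher and 568 lower in processed signals, 898 and 425 in the series' own table, 972 and 484 without centring, 425 and 9238 with median centring (where the median of all genes was -0.40), and 2582 lower with position correction, against 3509 and 3923 with the main values. The share of calls that were higher was 47.2% with the main values, 52.9% with position correction, 4.4% with median centring, 56.8% in processed signals, 67.9% in the series' table and 66.8% without centring. ETS genes called higher numbered 1 in place of 2 in each of these 5 settings. ETS genes called lower numbered 0 in place of 4 in processed signals, the series' table and without centring, 1 with position correction and 2 with the mean of a gene's probes. ETS probes called numbered 10 with the main values, 5 with position correction, 0 in processed signals and 1 each in the series' table and without centring. Genes that were never called changed sign: Ets1 read -0.14 in processed signals, -0.033 with position correction, -0.084 with median centring, -0.035 with the mean of its probes and -0.083 in the series' table and without centring, and ranged from -0.048 to 0.060 on single arrays. Elk3 read -0.18 in processed signals, -0.035 with position correction, -0.042 without background subtraction, -0.12 in the series' table and without centring, and -0.063 to 0.080 on single arrays. Erg read -0.15 to 0.029 on single arrays. Fli1 read -0.37 with median centring (adjusted p = 3.9e-04). The cause of these changes was not tested. The main test was already paired by array, because each array holds both RNAs and the test is of its ratio against 0. Signal over background limits the size given for Spi1, whose ratio was 0.68 with a normexp offset of 10 and 0.58 without background subtraction.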
